A study of Homo sapiens with 2 samples.

Results

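The genes described here encode the actin cytoskeleton and its contractile and adhesive partners: actins, transgelins, calponins, myosin chains, tropomyosins, filamins, actinins, proteins of cell-matrix adhesions, the Arp2/3 complex, and the transcription factor SRF with its muscle co-activator myocardin. They were chosen by name, 48 genes in all, and each stood on 1 entry of a table of 56544 named genes. Expression is given as FPKM, which scales reads for transcript length and depth. Paired FPKM values are always given for the control library first and the SOS library second. Ratios were taken where either value was 1 or more, which held for 41 of the 48 and for 14288 genes of the whole table. The other 7, namely ACTA1, ACTC1, ACTG2, TAGLN3, CNN1, FHL1 and MYOCD, are given by their levels.

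RNA was sequenced from HGC-27, a long-established human gastric cancer line of undifferentiated origin, after 48 h with a control peptide (Ctrl) or with a peptide that the sample titles name SOS and the series title names SHAP. In both groups the peptide was delivered in PDPA micelles, so the comparison is between peptides and holds no cells without micelles. Each group was 1 library of 1 line, so no difference below has a replicate check and no test was made. Which library is higher was read from the headers of the FPKM columns. The log2 ratio in the authors' deposited table is positive where the Ctrl column is higher, so if the column names were exchanged every direction here would turn.

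Actin filaments are built from monomers of a highly conserved protein family. Beta- and gamma-actin (ACTB, ACTG1) serve the cytoplasm of nearly all cells, while the alpha-actins and ACTG2 belong to skeletal, heart and smooth muscle. SRF binds a short DNA element, the CArG box, before many of these genes. Its co-activators of the MRTF family are held back by free actin monomers and released as monomers are built into filaments, and myocardin does the same work in heart and smooth muscle without that brake. Expression of ACTA2, TAGLN and CNN1 is widely used as a mark of smooth muscle cells and of myofibroblasts.

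The promoters of these genes were searched for the CArG box. The CArG box searched was the canonical form, a pair of C, a run of A or T, and a pair of G, which reads as the same motif on both strands. RefSeq promoter windows (GRCh38.p14, 250 bases before to 50 after an annotated start) were found for 43 of the 48 genes, and 13 of these (30.2%) held at least 1 box, against 1.60% of all 27305 genes with a window. Counted by window it was 15 of 86 (17.4%) against 1.29% of 35116. The genes were picked partly as known SRF targets, so this difference describes the choice. ACTB, ARPC1B, MYL9, MYOCD and TAGLN had no window in the RefSeq promoter table. Below, boxes are in capitals. SRF is shown because the gene carries 2 boxes beside its own start, ACTG1 and FHL2 because they are expressed genes with a box, ACTG2 because its pair of boxes precedes a gene almost silent here, and ACTA2 because it differed most between the libraries.
SRF, chr6:43171019-43171318, plus strand: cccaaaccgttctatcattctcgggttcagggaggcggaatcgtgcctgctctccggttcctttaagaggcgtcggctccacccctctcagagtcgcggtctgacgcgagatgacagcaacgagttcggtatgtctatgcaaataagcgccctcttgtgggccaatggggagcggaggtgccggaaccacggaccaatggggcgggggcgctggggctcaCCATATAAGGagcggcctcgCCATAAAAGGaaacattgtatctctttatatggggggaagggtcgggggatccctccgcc
ACTG1, chr17:81512750-81513049, minus strand: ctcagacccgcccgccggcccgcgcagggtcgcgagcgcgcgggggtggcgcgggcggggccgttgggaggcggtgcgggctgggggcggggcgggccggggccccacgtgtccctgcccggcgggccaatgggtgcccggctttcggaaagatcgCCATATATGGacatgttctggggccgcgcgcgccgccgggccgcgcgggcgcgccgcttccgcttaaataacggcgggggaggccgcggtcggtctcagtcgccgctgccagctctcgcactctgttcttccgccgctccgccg
FHL2, chr2:105399002-105399301, minus strand: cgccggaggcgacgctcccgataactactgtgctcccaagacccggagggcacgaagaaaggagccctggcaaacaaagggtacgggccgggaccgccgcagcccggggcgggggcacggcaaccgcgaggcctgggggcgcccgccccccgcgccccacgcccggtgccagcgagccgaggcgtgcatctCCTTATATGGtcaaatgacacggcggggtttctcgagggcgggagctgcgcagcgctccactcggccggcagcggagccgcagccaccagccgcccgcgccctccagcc
ACTG2, chr2:73892758-73893057, plus strand: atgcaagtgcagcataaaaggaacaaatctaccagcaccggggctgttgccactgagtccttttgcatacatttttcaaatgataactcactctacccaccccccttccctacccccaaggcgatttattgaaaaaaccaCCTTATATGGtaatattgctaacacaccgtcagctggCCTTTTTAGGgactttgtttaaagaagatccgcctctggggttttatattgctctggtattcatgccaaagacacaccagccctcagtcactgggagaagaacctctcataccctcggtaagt
ACTA2, chr10:88952724-88953023, minus strand: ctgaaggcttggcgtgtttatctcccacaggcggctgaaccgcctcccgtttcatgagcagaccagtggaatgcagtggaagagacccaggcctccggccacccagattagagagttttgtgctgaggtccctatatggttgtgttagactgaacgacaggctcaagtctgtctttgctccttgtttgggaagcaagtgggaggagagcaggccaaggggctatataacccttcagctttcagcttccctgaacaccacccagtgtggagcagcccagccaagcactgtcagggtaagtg

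In the SRF window the boxes begin at positions -30 and -10, counted from the start with bases before it negative. In ACTG1 the box begins at -94, and the FLNA and MYLK boxes, CCAATTAAGG and CCTTTTATGG, begin at that same position. Those of CNN2 (CCTTATAAGG), TGFB1I1 (CCAAATTTGG), ACTN1 (CCAAAAATGG) and TPM4 (CCAAATAAGG) begin at -89, -51, -171 and -173. The muscle alpha-actins ACTA1 and ACTC1 carry CCAAATATGG and CCAAATAAGG at -97 and -109, and FHL1 carries CCTAAAATGG at -126. FHL2 has a second box, CCTTAAAAGG, before another annotated start. Neither ACTA2 window holds the exact form searched. The ACTA2 window shown does hold ccctatatgg and ccttgtttgg, which each depart from that form by a single letter. Whether SRF binds there was not tested.

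**Figure D1:**
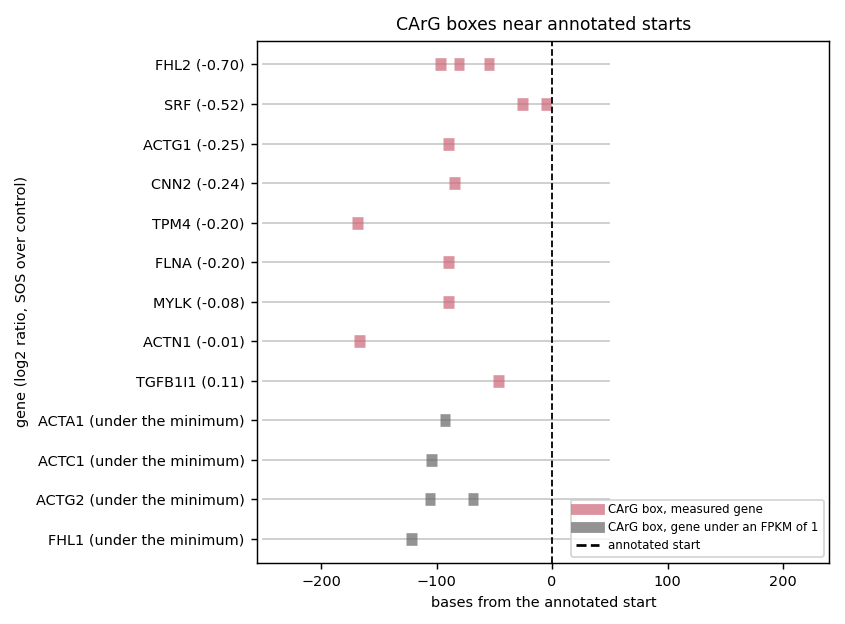
Positions of CArG boxes in windows of 250 bases before to 50 bases after annotated starts (x axis, bases from the start, at the dashed line), for the 13 genes with a box. Genes are ordered by their log2 ratio of SOS over control FPKM, given in brackets, with the 4 genes under an FPKM of 1 in grey below. The boxes of ACTN1 and TPM4, at -171 and -173, lie farthest from a start. The outer pair of FHL2 boxes is 1 box seen from a pair of overlapping windows.

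As a whole the expressed cytoskeleton genes were slightly lower in the SOS library, and their largest difference was in the smooth muscle actin ACTA2. By log2((SOS FPKM + 1)/(Ctrl FPKM + 1)), 35 of 41 lay below 0, which held for 54.1% of all genes tested. Their median was -0.28, beside -0.05 for all genes. A log2 ratio of at least 1 in either direction, a 2-fold difference on this scale, was reached by 1 member, ACTA2, on the lower side, where 1.64% of all genes lay. No member was higher by as much (3.74% of all genes). At the smaller size of 0.5, 11 members were lower (14.8% of all genes) and none was higher (14.6%). The 11 were ACTA2, ACTB, TAGLN, TAGLN2, MYL6, TPM3, FHL2, SRF, CFL1, ARPC1A and ARPC4. In the authors' deposited table ACTA2 was the 1 member marked as significant, a mark that 2.30% of all genes tested carried with the control higher. Unmarked members such as TPM3 and ACTB had deposited adjusted p-values as low as that of ACTA2. Their deposited log2 ratios, positive where the control is higher, were 0.87 and 0.70, beside 1.52 for ACTA2. The mark is thus not separate from the size of the ratio. From bulk RNA, less of a transcript per cell and fewer cells that make it cannot be told apart.

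Level of expression moved with this shift. When all genes were cut into 5 equal classes by mean FPKM, the median log2 ratio went from 0.22 in the lowest class to -0.34 in the highest, and 31 of the 41 measured members sit in that highest class, above a mean FPKM of 33.6. Within it 28 of 31 members lay below 0, against 81.9% of all its genes, and 7 were lower by 0.5, against 31.0%. None of the 31 was higher by 0.5, where only 3.78% of all genes of the class lay. The median of the 31 members was -0.29, no lower than that of the class. Scaling both libraries to the same sum of FPKM moved the median of all genes from -0.05 to 0.16 and that of the members to -0.060, with 26 of 41 members below 0. The part of level in the general shift was not tested. By the FPKM ratio ACTA2 and TAGLN stood apart from genes of their own level, at -1.04 and -1.05 once the median of their class was subtracted. For TAGLN this depended on the measure. The ratio from the authors' deposited table, described below, was -0.38 for TAGLN and -1.37 for ACTA2.

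**Figure D2:**
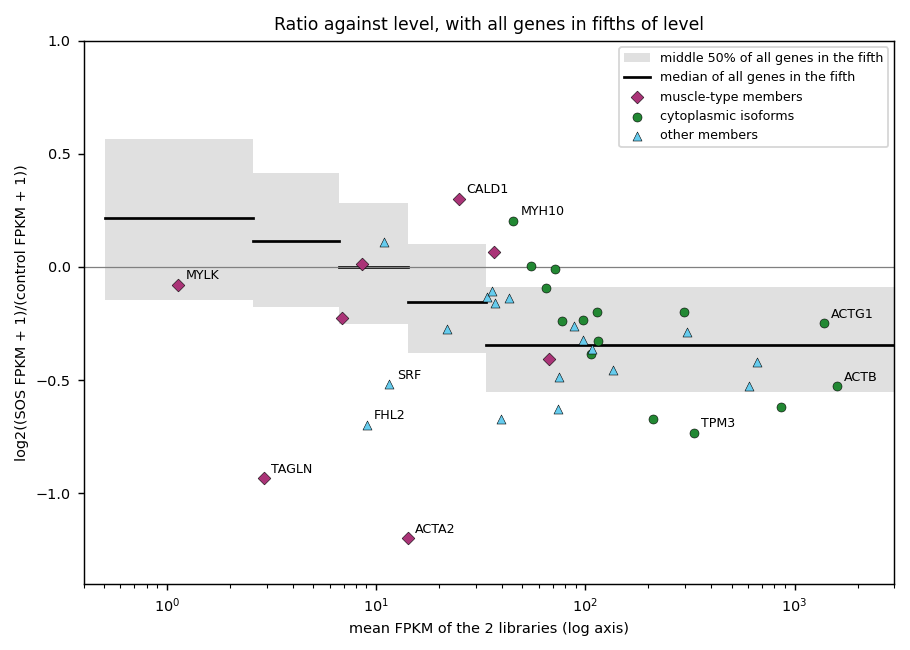
Each symbol is 1 of the 41 measured genes, placed by its mean FPKM over the 2 libraries (x axis, log scale) and its log2 ratio with a pseudocount of 1 (y axis). Black lines and grey boxes give the median and the middle 50% of all 14288 genes in 5 classes of mean level. By this FPKM ratio ACTA2 and TAGLN lie far below the genes of their own level, while ACTB and ACTG1 lie inside the grey box of the highest class. From the authors' deposited table the ratio of TAGLN was weaker, at -0.38.

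Actin message was almost entirely of the cytoplasmic kinds. ACTB (chromosome 7, 5527147 to 5563784, GRCh38) had FPKM values of 1878 and 1303, a log2 ratio of -0.53. ACTG1 (chromosome 17, 81509971 to 81523847) had 1500 and 1262, a ratio of -0.25. ACTB thus exceeded ACTG1 under the control peptide and came close to it under SOS. ACTA2 (chromosome 10, 88935074 to 88991339), the alpha-actin of vascular smooth muscle and myofibroblasts, had FPKM values of 20.2 and 8.24, so SOS was 2.45-fold lower, with a log2 ratio of -1.20. Among all genes tested, 0.833% had a ratio as low or lower. Scaled to the same sum of FPKM, ACTA2 came to -0.996, just inside a ratio of 1. How the log2 ratio in the authors' deposited table was made is not stated, and it differs from the FPKM ratio by gene. With its sign turned and its median offset from the FPKM ratio removed, the authors' deposited table gave -1.37 for ACTA2, -0.55 for ACTB and -0.26 for ACTG1.

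The other muscle actins were close to silent. ACTA1, of skeletal muscle, had FPKM values of 0.220 and 0.0900, and ACTG2, of visceral smooth muscle, 0.0820 and 0.493. ACTC1, of the heart, was listed at 0 in both. The difference in ACTG2 rests on traces, and the log2 ratio of the authors' deposited table was 0 for this gene. As a share of the 6 actins' FPKM, muscle-type actin was 0.604% in control and 0.343% in SOS, a log2 change in its quotient to cytoplasmic actin of -0.82.

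Overlapping genes limit the ACTA2 value, since the sources used here do not say whether libraries kept strand. In the GENCODE release 29 annotation 12.8% of the exonic bases of ACTA2 lie under exons of FAS, a death receptor gene on the other strand, and 17.3% under the antisense RNA ACTA2-AS1. FAS had FPKM values of 10.8 and 8.50 and ACTA2-AS1 had 0.119 and 0.304, and reads of these genes could not be told from those of ACTA2 in the shared bases if strand was not kept.

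**Figure D3:**
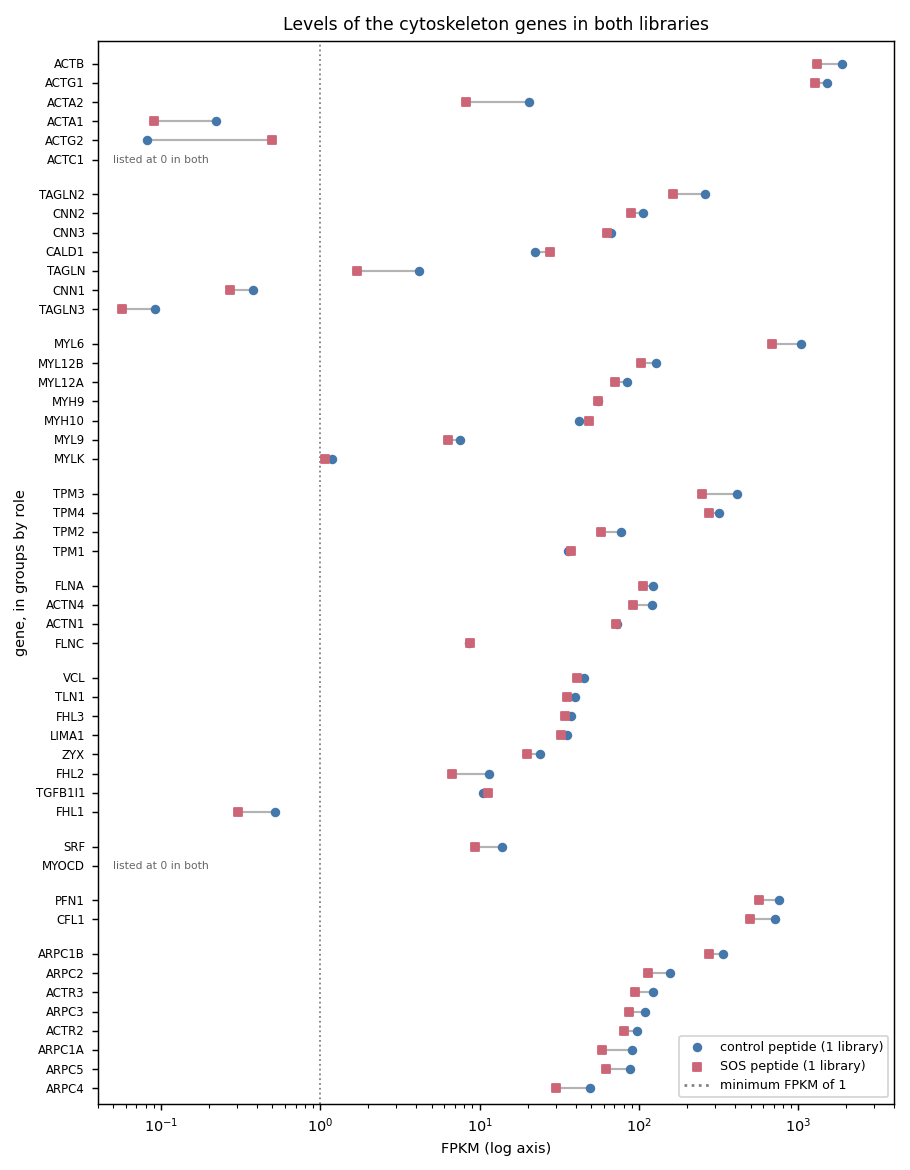
FPKM (x axis, log scale) of all 48 genes in the control library (blue circles) and in the SOS library (red squares), 1 library each, in groups by role. The dotted line is the minimum FPKM of 1. ACTB, ACTG1 and MYL6 head the list, the SOS symbol lies left of the control symbol for most genes, and ACTC1 and MYOCD were listed at 0 in both libraries.

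Among the actin-binding proteins first known from smooth muscle, both measured transgelins were lower in SOS. TAGLN (chromosome 11, 117199321 to 117204782), an early mark of smooth muscle, had FPKM values of 4.14 and 1.69, again 2.45-fold lower, with a log2 ratio of -0.93. This value depended on the measure, since the authors' deposited table, turned and centred as above, gave -0.38. TAGLN was the 1 measured member in which both measures stood at least 0.5 apart, beside 8.24% of all genes tested. TAGLN shares 11.4% of its exonic bases with PCSK7, a proprotein convertase gene on the other strand, which was at 13.0 and 12.0. TAGLN2, the transgelin of non-muscle cells, had 259 and 162, a log2 ratio of -0.67 beside -0.71 from the authors' deposited table. The neuronal TAGLN3 was at 0.0920 and 0.0570.

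Calponins and caldesmon, which bind actin and tropomyosin and dampen myosin in muscle, lay closer to 0 or above it. CNN1, the smooth muscle calponin, was scarce at FPKM values of 0.375 and 0.271. Of the forms in non-muscle cells CNN2 had 106 and 89.6 and CNN3 66.7 and 62.4, with log2 ratios of -0.24 and -0.09. CALD1, caldesmon, had the highest FPKM ratio of the measured members, 0.30, at 22.2 and 27.6. By other measures it was not the highest: the authors' deposited table gave 0.28 for CALD1 beside 0.42 for TPM1, and with the level class median subtracted CALD1 came to 0.46 and MYH10 to 0.55. It is made in a long form in smooth muscle and a short form in other cells, which a value per gene does not separate.

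Myosin light chains and heavy chains went apart. MYL6, the essential light chain, had FPKM values of 1043 and 679, a log2 ratio of -0.62. Of the regulatory light chains in non-muscle cells MYL12A had 83.9 and 70.9 and MYL12B 129 and 102, with ratios of -0.24 and -0.33. MYL9, the regulatory light chain of smooth muscle, was at 7.51 and 6.27, a log2 ratio of -0.23 that came to -0.46 from the authors' deposited table. The heavy chains lay near or above 0, with MYH9, non-muscle myosin IIA, at 55.1 and 55.3 and MYH10, myosin IIB, at 42.0 and 48.6, a log2 ratio of 0.20. With the level class median subtracted, MYL12A and MYL12B came to 0.10 and 0.02, and MYL6 and MYL9 to -0.28 and -0.23. MYH9 and MYH10 came to 0.35 and 0.55. The light chains also have shorter annotated coding transcripts than the heavy chains, and the part of length was not tested. MYLK, the kinase that switches smooth muscle myosin on, was barely above the minimum at 1.19 and 1.08. MYL12A and MYL12B are close copies, and 3.94% of the 50-base words in MYL12B transcripts also occur in MYL12A, so a few reads could be counted for either.

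Of the tropomyosins, which run along the filament and set which partners bind, TPM3 was lowest. It had FPKM values of 414 and 249, a log2 ratio of -0.73, while TPM4 was at 315 and 275 (-0.20). TPM3 was thus the more abundant of the pair in control and TPM4 in SOS. TPM2, the beta form of muscle, was at 76.7 and 57.7 with a ratio of -0.41. TPM1 was at 35.6 and 37.4, a log2 ratio of 0.07 that came to 0.42 from the authors' deposited table. Both TPM1 and TPM2 also give isoforms in cells outside muscle, so their place among the muscle-type genes follows their names more than these cells.

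Filamins and alpha-actinins, which bind filaments into networks and bundles, lay near the median of all genes or below it. FLNA had FPKM values of 122 and 106 (log2 ratio -0.20) and the muscle filamin FLNC had 8.56 and 8.65 (0.01). ACTN1 had 72.2 and 71.8 and ACTN4 had 120 and 91.8, a log2 ratio of -0.38.

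Muscle-type and cytoplasmic genes were close as classes and far apart within some families. The 8 measured muscle-type members had a median log2 ratio of -0.15 and the 15 cytoplasmic ones -0.24, a difference of 0.09 that turned to -0.25 when the median of each gene's level class was subtracted. The muscle-type class was far from uniform, running from -1.20 in ACTA2 to 0.30 in CALD1. Within families, the quotient of muscle-type to cytoplasmic FPKM was lower in SOS for actins and transgelins, by log2 values of -0.82 and -0.62. It was higher for tropomyosins (0.24) and filamins (0.21) and close to even for the regulatory light chains (0.04). From the authors' deposited table it was -0.95 for actins and turned to 0.33 for transgelins and -0.13 for the light chains. With the median of each level class subtracted, filamins turned to -0.13 and the light chains to -0.28. Muscle-type message was the minor part of every family in both libraries, from 0.178% of calponin to 15.4% of tropomyosin, both in SOS.

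**Figure D4:**
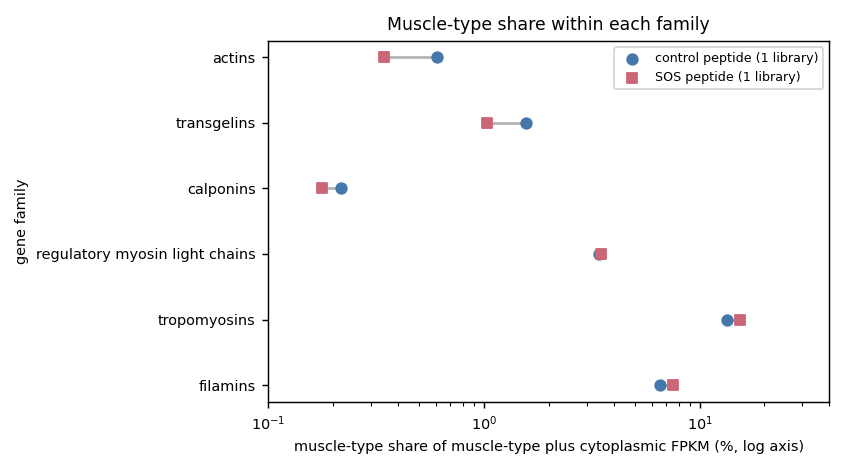
Share of muscle-type members in the summed FPKM of muscle-type and cytoplasmic members of 6 families (x axis, percent, log scale), in the control library (blue circles) and the SOS library (red squares). The share is lower in SOS for actins (0.604% and 0.343%), transgelins (1.57% and 1.03%) and the scarce calponins (0.217% and 0.178%), and higher for tropomyosins (13.3% and 15.4%).

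Genes of adhesions, where actin cables meet integrins, had a median log2 ratio of -0.14 over 7 measured members. FHL2 (chromosome 2, 105357712 to 105438513), a LIM-domain protein known to bind SRF and to be its target, was lowest, with FPKM values of 11.4 and 6.66, 1.71-fold lower. Its log2 ratio was -0.70, beside -0.71 from the authors' deposited table. The remaining 6 lay between -0.28 and 0.11. ZYX, the tension-sensitive zyxin, was at 24.0 and 19.7, VCL, vinculin, at 45.1 and 40.9, and TLN1, the integrin activator talin, at 39.3 and 35.1. LIMA1 was at 35.5 and 32.3 and FHL3 at 37.2 and 34.5. TGFB1I1, the paxillin relative Hic-5, was the 1 member of this group above 0, at 10.4 and 11.3. FHL1, a LIM protein of striated muscle, was at 0.522 and 0.304.

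SRF itself (chromosome 6, 43171299 to 43181507) had FPKM values of 13.8 and 9.35, 1.48-fold lower, with a log2 ratio of -0.52 beside -0.55 from the authors' deposited table. Myocardin, MYOCD, was listed at 0 in both. The MRTF co-activators, under their older symbols, were MKL1 at 11.4 and 11.6 and MKL2 at 5.91 and 4.98. Their log2 ratios were 0.03 and -0.21, beside 0.55 and -0.13 from the authors' deposited table, so the value of MKL1 depended on the measure. The 9 measured genes with a CArG box in a window had a median of -0.20, and the 28 with windows but no box -0.33. Only the exact form was counted, so the group without a box includes ACTA2 (-1.20). The groups were not matched for level, and the part of SRF in these values was not tested. The 4 measured genes without a window, among them TAGLN and ACTB, had a median of -0.41. Among genes with a box FHL2 and SRF were at -0.70 and -0.52, while ACTN1 and TGFB1I1 were at -0.01 and 0.11.

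All subunits of the Arp2/3 complex, which starts filament branches, were lower in SOS, by amounts near the median for genes of their level. The 8 log2 ratios ran from -0.26 to -0.67 with a median of -0.41, beside -0.34 for the highest level class of all genes, and 5 of 8 were below 0 once the median of each level class was subtracted. ARPC4 had FPKM values of 48.9 and 30.3 (log2 ratio -0.67), and ARPC1A 90.4 and 58.2 (-0.63). ARPC1B, which can take the place of ARPC1A in the complex, was at 335 and 275 (-0.29). Of the actin-related core proteins ACTR2 had 96.3 and 80.3 and ACTR3 had 122 and 94.3. The remaining subunits were ARPC2 at 157 and 114, ARPC3 at 109 and 86.5, and ARPC5 at 87.3 and 62.0. Reads of ARPC1A are uncertain, because 56.3% of the 50-base words of its transcripts occur in other genes. Nearly all of these lie in a readthrough gene that joins it to ARPC1B, AC004922.1, at 3.78 and 2.66. ARPC4 likewise shares exons with its readthrough gene ARPC4-TTLL3, at 12.1 and 17.0.

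Cofilin and profilin, which sever filaments and recharge monomers, were both lower in SOS. CFL1 had FPKM values of 713 and 495, a log2 ratio of -0.53, and PFN1 had 758 and 565, a ratio of -0.42. From the authors' deposited table they came to -0.55 and -0.59. With the median of their level class subtracted they came to -0.18 and -0.08, so both lay close to genes of their level.

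**Figure D5:**
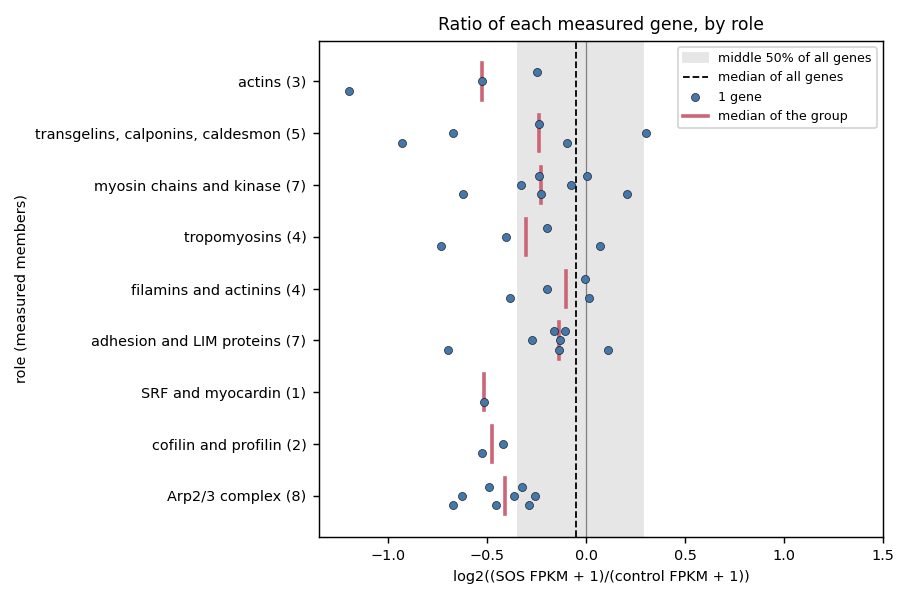
Log2 ratio of SOS over control FPKM with a pseudocount of 1 (x axis) for each measured gene (points, staggered for legibility), by role with the number measured in brackets. Red bars are group medians, the dashed line is the median of all 14288 genes (-0.05) and the grey band their middle 50%. The 8 Arp2/3 genes lie together between -0.67 and -0.26, whereas actins and actin-binding proteins spread widely.

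A wider list of 132 symbols for actin regulators had no median shift from all genes. It held 116 measured genes, of which 10 were higher and 9 lower by at least 0.5, beside 14.6% and 14.8% of all genes, and their median log2 ratio of -0.05 equalled that of all genes. The 1 gene past a ratio of 1 was ROCK2, a kinase that promotes contraction, with FPKM values of 3.91 and 9.21 (1.06). Of all genes, 3.74% were higher and 1.64% lower by at least 1. The formin DIAPH1, which nucleates unbranched filaments, was the lowest of its group, at 49.8 and 33.7 (-0.55). Of genes that handle monomers and filament ends 16 of 20 lay below 0, beside 54.1% of all genes and 81.9% of those in the highest level class, from WDR1, a partner of cofilin, at 74.3 and 46.2 (-0.67) to the capping protein CAPG at 34.1 and 49.3 (0.52). Among 17 measured genes of nucleation and branching, the Arp3 relative ACTR3B was lowest at 23.3 and 14.0 (-0.69) and the formin FMNL2 highest at 7.99 and 10.8 (0.39).

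Of 17 further measured adhesion genes, the zyxin relative TRIP6 was lowest at 68.2 and 39.3 (log2 ratio -0.78) and the tensin TNS1 highest at 1.11 and 1.77 (0.40). Of crosslinkers and cortex proteins, MARCKSL1 was lowest, at 85.6 and 56.1 (-0.60). Other myosins ran from MYO1C at 36.4 and 26.3 (-0.45) to MYO1D at 3.97 and 5.95 (0.48). SRF cofactors ran from ELK1 at 11.9 and 8.74 (-0.40) to ELK3 at 0.888 and 1.40 (0.34). ELK3 passed the minimum FPKM through the SOS library alone and so had to lie above 0. Of 15 listed genes linked to smooth muscle 12 were measured, but DES, LMOD1 and LPP reached an FPKM of 1 through the SOS library alone and so had to lie above 0. LPP was highest, at 0.641 and 1.83 (0.79), and CSRP1 lowest, at 13.6 and 8.60 (-0.61).

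Markers of cell types were read beside these values. Of 7 markers of differentiated smooth muscle, SMTN had FPKM values of 10.8 and 16.2 and SYNPO2 had 1.55 and 2.27. The other 5 were under an FPKM of 1 in the control library, with LMOD1 at 0.439 and 1.29, DES at 0.330 and 1.11, ACTG2 and CNN1 as given above, and MYH11, the defining smooth muscle myosin, at 0.128 and 0.0740. MYH11 and CNN1 were lower in SOS and the rest higher. The list summed to 13.7 and 21.7, most of it SMTN. It left out ACTA2 (20.2 and 8.24) and TAGLN (4.14 and 1.69), both also used as smooth muscle marks and both lower in SOS. All 8 fibroblast markers were measured and had log2 ratios above 0, beside 6550 of all 14288 genes tested. They summed to 800 and 1213, mostly through COL1A1 and COL3A1. The part of these markers in the results was not tested. Markers of epithelium were low although the label gives a gastric cancer line. None of 6 reached an FPKM of 1, with KRT8 at 0.797 and 0.353, EPCAM at 0.238 and 0.599, CDH1 at 0 and 0.0160, and 4 of 6 gastric markers listed at 0 in both. VIM, the mesenchymal filament gene, was at 3161 and 3140, and leukocyte and endothelial markers were near 0. Of 8 striated muscle markers, TNNT1 (86.3 and 77.4) and MB (14.2 and 15.4) were measured.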

How the data were processed

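RNA-seq of 2 libraries, control and SOS, was analysed from a single deposited table. The authors gave FPKM per library and, for the comparison, a log2 ratio, a p-value and a significance mark, per the file headers. GRCh38.p10, RSEM, Cufflinks and HISAT2 are named in the submitters' processing notes, with roles, versions and strandedness not given in the sources used. Deposited p-values are not printed. Depth is unknown because the table gives no counts, so no interval for counting error was computed.

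Entries without a name (412) or with names turned into dates (27) were left out, and entries sharing a name were summed. Ratios are log2((SOS FPKM + 1)/(control FPKM + 1)) where either library reached an FPKM of 1, computed with Python 3.11.15, pandas 2.3.3 and numpy 2.4.6 and checked on simulated data. The deposited log2 ratio was turned to SOS over control and its median offset of 0.152 from the FPKM ratio (8991 genes at 5 or more in both) was removed. Shared sequence was counted as 50-base words in GENCODE release 29 transcripts, in both orientations. Members, classes and lists were chosen with earlier results of these data known. Named are all members and, of the wider list, genes past a ratio of 1 and the extremes of each group. Some of these extremes are not reported here. MKL1 and MKL2 were added after their values were seen.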

Additional observations from a re-analysis of the deposited data

How the results depend on the processing

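Alternatives were a pseudocount of 0.1, no minimum FPKM or a minimum of 5, both libraries scaled to the same sum or to a median ratio of 1, the highest entry per name, the ratio of the authors' deposited table, and the median of each gene's class among 5 classes of mean FPKM subtracted. No member was higher by the size rule under any of them. The count of lower members went from 1 to 2 with a pseudocount of 0.1 and with the level class median subtracted, to 0 with the same sum, where ACTA2 came to -0.996, and to 11 at a size of 0.5. The median log2 ratio of the members was -0.060 with the same sum, -0.12 with a median ratio of 1 and 0.011 with the level class median subtracted. The difference between muscle-type and cytoplasmic medians turned to -0.25 with the level class median subtracted. It was 0.01 without TPM1, TPM2 and CALD1. Leaving out the 18 measured members that share at least 5% of their 50-base words with other genes, an alternative chosen after seeing the data, gave a median of -0.20.

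Within families the log2 change of the muscle-type quotient was, first from the authors' deposited table and then with the level class median subtracted, -0.95 and -0.93 for actins, 0.33 and -0.72 for transgelins, 0.47 and -0.13 for filamins, and -0.13 and -0.28 for regulatory light chains. For tropomyosins the authors' deposited table gave 0.38. The causes were not tested. Of the 11 members at or below -0.5, ACTA2 was the 1 that lay there under every alternative. None of the 11 changed sign under an alternative. With 1 library per group, differences between cultures are not measured.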

Other observations

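Transcript length moved with the ratio among these genes. The 21 measured members with the shorter annotated coding transcripts, of 1014 to 2582 bases at their longest, had a median log2 ratio of -0.41, with 8 at or below -0.5. The 20 longer ones, of 2666 to 10027 bases, had a median of -0.18, and 5 of the 6 members above 0 were among them, namely MYH9, MYH10, TPM1, CALD1 and FLNC. Across the 41 members the Spearman correlation between length and ratio was 0.43, and between length and mean FPKM -0.38. Across 11706 measured genes with a coding transcript the same values were 0.29 and -0.28, and the part of length or level in the ratios was not tested. The points share the same 2 libraries. Across 5 length classes of all genes the median went from -0.29 in the shortest to 0.09 in the longest.

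The essential light chain MYL6 and the heavy chain MYH9, parts of 1 motor, had log2 ratios of -0.62 and 0.00. From the authors' deposited table they came to -0.62 and 0.28, and with the level class median subtracted to -0.28 and 0.35. This pair was chosen after its values were seen.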
